A study of Mus musculus with 15 samples.

Results

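The B cell and plasma cell genes described here are 7 genes whose products belong to B lymphocytes or to the antibody-secreting cells that arise from them: Cd79a, Cd79b, Ms4a1, Cd22, Blk, Ly6d and Jchain. They were chosen by name and found by symbol in the array annotation, and all 7 were measured, each by its 1 single-symbol probe set, among 19937 genes in all. No filter on low signal was applied, so none was lost. RNA came from left ventricular heart muscle cells of male C57Bl/6NT mice aged 8 to 9 months, isolated with collagenase through the aorta and selected for calcium tolerance, and was hybridised to Affymetrix Mouse Gene ST arrays. The irradiated mice received a whole-body dose of 90 cGy of 1 GeV protons, and cells were taken 1 day (2 samples), 3 days (3 samples), 5 days (3 arrays), 12 days (2 samples) or 26 days (2 samples) later. The 3 sham samples, 2 of day 1 and 1 of day 3, had no proton exposure and served as the control of every day, so all comparisons with sham share them. Days 5, 12 and 26 had no sham of their own, so proton exposure and the later time of sampling cannot be told apart there. Day numbers follow the sample titles; the design text of the series gives other days for the later time points and also names iron ions, which were not analysed here.

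A B cell reads antigen with a membrane antibody that cannot signal by itself. CD79A and CD79B, the paired signalling chains of the B cell receptor, carry the message inside, where kinases such as BLK pass it on and CD22 damps it. After activation some B cells become plasma cells, which secrete antibody, and JCHAIN links secreted IgA and IgM into multimers. The heart is not a lymphoid organ, but B cells are found in its vessels and tissue, and the sample labels allow for a small number of inflammatory and endothelial cells beside the muscle cells. In such RNA, fewer cells of a type and less RNA per cell cannot be told apart.

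The B cell receptor chain Cd79a and the plasma cell gene Jchain correlated at 0.667 across samples (Spearman 0.675). The sequences upstream of these 2 genes are shown here. Each is the 250 bases before the gene's start, from RefSeq's table of the GRCm38.p6 build, which held 3 of the 7 genes (Cd79a, Cd22 and Jchain). Cd79a is read from chr7:24897247-24897496 on the plus strand and Jchain from chr5:88527898-88528147 on the minus strand. Capitals mark CNNGGGA, a motif read by early B cell factor EBF1.
Cd79a: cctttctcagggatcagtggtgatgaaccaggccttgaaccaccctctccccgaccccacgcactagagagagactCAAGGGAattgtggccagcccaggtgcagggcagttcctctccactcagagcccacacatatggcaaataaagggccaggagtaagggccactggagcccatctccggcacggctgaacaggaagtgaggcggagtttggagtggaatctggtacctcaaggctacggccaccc
Jchain: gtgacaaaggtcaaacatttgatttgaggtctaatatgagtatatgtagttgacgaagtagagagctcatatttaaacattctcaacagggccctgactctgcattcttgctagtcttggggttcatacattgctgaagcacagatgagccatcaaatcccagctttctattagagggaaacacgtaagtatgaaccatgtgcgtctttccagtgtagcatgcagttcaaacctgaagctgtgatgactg
The Cd79a window holds this motif once, as CAAGGGA, beginning 174 bases before the start, and the Jchain window holds none on either strand. The Cd22 window, not shown, holds it 3 times. The motif was present in 51.5% of 32851 promoter windows of the same length, so its presence is common. The octamer ATGCAAAT of immunoglobulin promoters, present in 1.60% of the windows, was in none of the windows of Cd79a, Cd22 and Jchain. A match is a match of letters only.

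All values are log2 signals as deposited, on which 1 unit is a doubling. The array medians lay between 4.90 and 5.16, and arrays set no depth beyond their number. Heart muscle markers deviated little, the mean deviation of 12 such genes lying between -0.06 and 0.06 in all 14 samples. Arrays 1 and 2 of proton day 5 differed least of all 105 pairs of arrays: the SD of their differences over 11974 genes of above-median signal was 0.0759, against 0.220 to 0.527 for the other pairs. They were averaged and counted as 1 sample, which leaves 2 samples on day 5. Nothing in the labels says that samples came from separate mice, so the p-values measure the spread between samples, which may be technical.

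Cd79b was above the median of its own array on all 15 arrays. Cd79a was below it on 6, Ms4a1 and Jchain on 7, Ly6d on 3, Cd22 on 10 and Blk on all 15. None of the 7 passed limma's adjusted p of 0.05 in any of the 8 comparisons, in which 0% to 0.0602% of all genes passed.

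**Figure D1:**
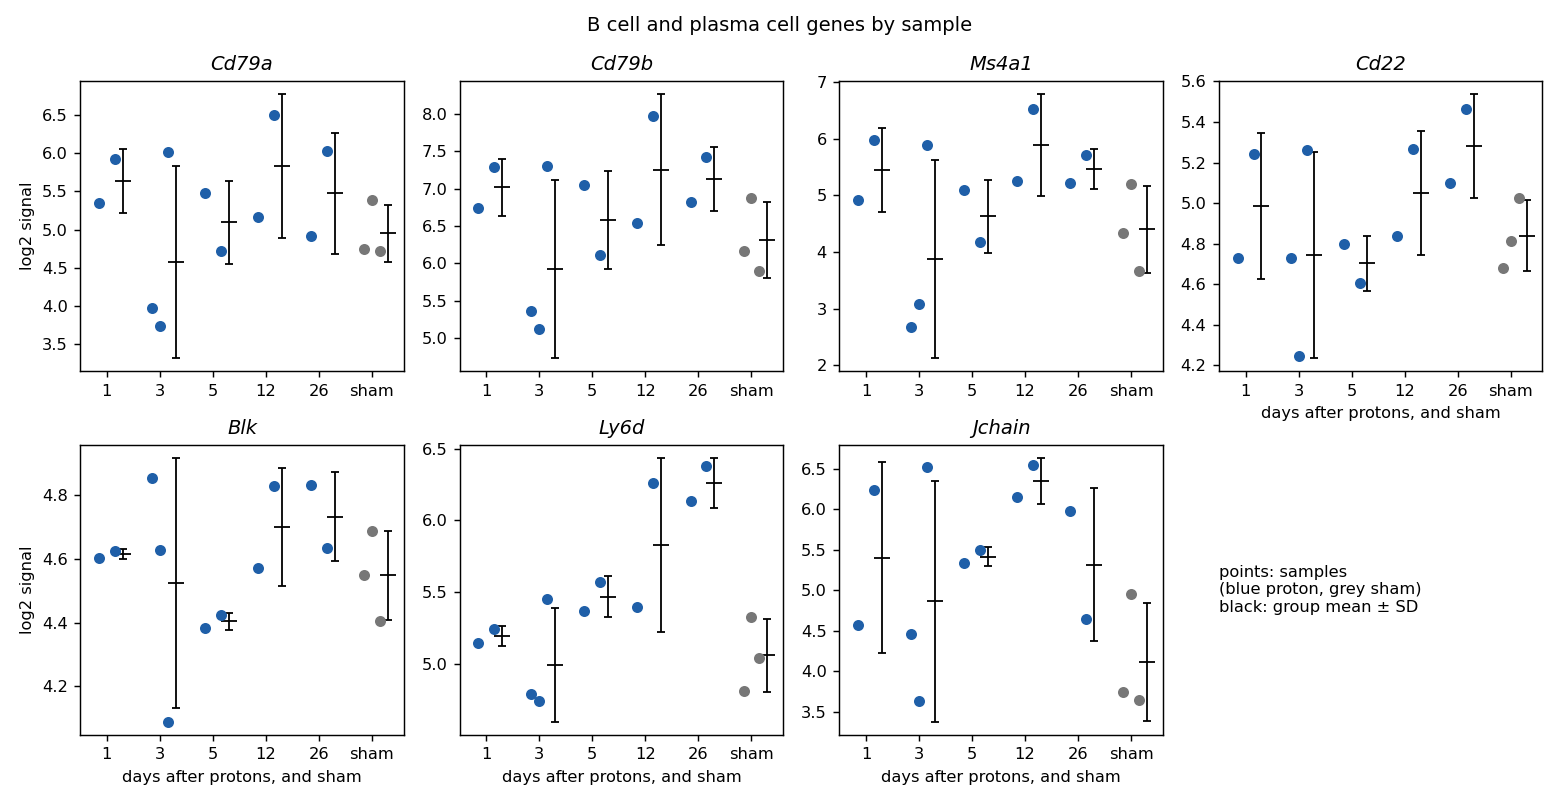
Log2 signal of the 7 genes (vertical axis, 1 panel each) in proton samples at days 1 to 26 (blue) and in sham samples (grey), with each group's mean and SD in black. Ms4a1 spans 2.67 to 5.88 within proton day 3 alone, while both proton day 26 samples of Ly6d, 6.14 and 6.38, lie above the sham range of 4.82 to 5.33. At day 26, 22.2% of all genes lie above their sham range in this way.

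The chains of the B cell receptor and CD20 varied together from sample to sample. Cd79a, at chr7:24897497-24901858 in GRCm38.p6, read 5.34 and 5.93 on proton day 1, 3.97, 3.74 and 6.02 on proton day 3, 5.48 and 4.72 on proton day 5, 5.17 and 6.50 on proton day 12 and 4.92 and 6.03 on proton day 26, against 4.75, 5.38 and 4.73 in sham cells. Its partner Cd79b (chr11:106311341-106314562) read 6.75 and 7.29 on proton day 1, 5.36, 5.12 and 7.30 on proton day 3, 7.05 and 6.12 on proton day 5, 6.54 and 7.97 on proton day 12 and 6.82 and 7.43 on proton day 26, against 6.17, 6.87 and 5.90 in sham cells. Both genes were low in day 3 replicates 1 and 2 and highest in day 12 replicate 2, and every group of proton samples overlapped the sham range for Cd79a. Ms4a1 encodes CD20, a surface protein of mature B cells that plasma cells lose. Ms4a1 (chr19:11249679-11266149) read 4.93 and 5.97 on proton day 1, 2.67, 3.08 and 5.88 on proton day 3, 5.09 and 4.18 on proton day 5, 5.25 and 6.52 on proton day 12 and 5.22 and 5.71 on proton day 26, against 4.34, 5.20 and 3.67 in sham cells. Its day 12 and day 26 samples lay above every sham sample, as for 9.09% and 22.2% of all genes.

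Within these 3 genes the spread inside a group exceeded the distance between group means. The 3 samples of day 3 covered 3.21 for Ms4a1, 2.28 for Cd79a and 2.18 for Cd79b, against distances of 2.01, 1.26 and 1.33 between the highest and the lowest group mean. The largest difference from sham was that of Ms4a1 at day 12, 1.48 ± 0.77 (SE; limma adjusted p = 0.748). Cd79b stood at 0.94 ± 0.58 there (limma adjusted p = 0.760) and Cd79a at 0.88 ± 0.59 (limma adjusted p = 0.769). Without day 12 replicate 2 these differences were 0.85 for Ms4a1, 0.23 for Cd79b and 0.21 for Cd79a, and without replicate 1 those of Cd79b and Cd79a were 1.66 and 1.54. At day 3 the differences were below 0 for all 3 genes but smaller than their errors.

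Across the 14 samples Cd79a and Cd79b had a Pearson correlation of 0.979 (Spearman 0.982), Cd79b and Ms4a1 one of 0.973 (0.916) and Cd79a and Ms4a1 one of 0.952 (0.903). Without the 2 samples farthest from the median these were 0.957, 0.960 and 0.917, and after removing the group means 0.980, 0.961 and 0.936. These are descriptions: the points share arrays and cell preparations. The genes most like them among 11970 genes of above-median signal were Cd37 (a tetraspanin of B cells and other leukocytes), which was among the 3 closest to each of Cd79a, Cd79b and Ms4a1 with correlations of 0.944, 0.956 and 0.962, H2-Ob (a class II chaperone chain) for Cd79a at 0.964, and Dock2 (a migration factor of leukocytes) for Cd79b at 0.959. Samd9l stood first for Cd79a at 0.974, Apobec1 second for Cd79b at 0.957, and Capg and Cd209f followed Cd37 for Ms4a1 at 0.958 and 0.950. Markers of several other cell types varied with them. The mean deviation of 12 macrophage genes correlated at 0.858 with Cd79a, 0.891 with Cd79b and 0.908 with Ms4a1, that of the class II genes at 0.779, 0.865 and 0.855, of endothelial genes at 0.775, 0.821 and 0.825, of fibroblast genes at 0.765, 0.836 and 0.810 and of mesothelial genes at 0.827, 0.828 and 0.802. Within groups the mesothelial mean had the higher values, 0.914, 0.949 and 0.933, against 0.820, 0.866 and 0.901 for macrophages. The erythroid mean correlated at 0.538, 0.479 and 0.514 with Cd79a, Cd79b and Ms4a1, and within groups at 0.789, 0.843 and 0.874. For the T cell mean these were 0.233, 0.349 and 0.248, and within groups -0.059, -0.023 and -0.235. The macrophage mean lay at -0.89, -0.70 and 0.51 in the day 3 samples, against -0.57 to -0.07 in sham cells. With the mean of macrophage, endothelial and fibroblast markers in the fit the day 1 differences turned to -0.13 for Cd79a, -0.15 for Cd79b and -0.11 for Ms4a1. That mean is built from lists that correlated with these genes, and the part of other cells in their values was not tested.

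**Figure D2:**
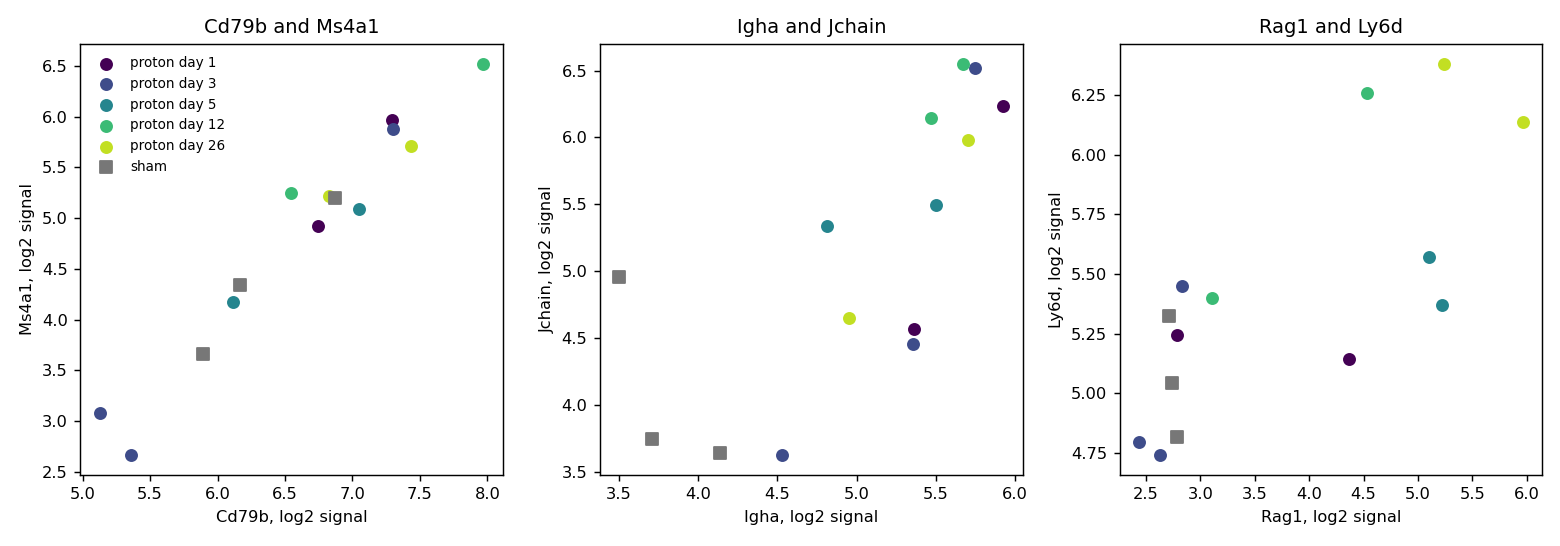
Log2 signals of 3 pairs of genes in the 14 samples (circles, proton days from dark to light; grey squares, sham). Cd79b and Ms4a1 lie along 1 line that mixes the groups, all sham samples of Igha (3.50 to 4.14) lie left of the proton samples, and the day 26 samples are at the upper right for Rag1 and Ly6d.

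Cd22 and Blk varied far less. Cd22, a receptor for sialic acid that restrains the B cell receptor (chr7:30865404-30880342), read 4.73 and 5.24 on proton day 1, 4.73, 4.24 and 5.26 on proton day 3, 4.80 and 4.61 on proton day 5, 4.84 and 5.27 on proton day 12 and 5.10 and 5.46 on proton day 26, against 4.68, 4.81 and 5.03 in sham cells. Only at day 26 did every proton sample exceed every sham sample, as for 22.2% of all genes. The difference there was 0.44 ± 0.27 (SE, limma adjusted p = 0.560), or 0.26 without day 26 replicate 2. Cd22 followed Cd79a at 0.807 across samples (Spearman 0.793). Its 3 closest genes were Ctla2b at 0.889, Xaf1 at 0.873 and Ptger4, a prostaglandin E2 receptor, at 0.866.

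Blk, a Src-family kinase of B cells (chr14:63372837-63417187), read 4.60 and 4.62 on proton day 1, 4.85, 4.63 and 4.09 on proton day 3, 4.38 and 4.42 on proton day 5, 4.57 and 4.83 on proton day 12 and 4.83 and 4.63 on proton day 26, against 4.55, 4.69 and 4.41 in sham cells. It was lowest in day 3 replicate 3, a sample in which the other members were high or in mid-range, and no difference from sham exceeded its error. It did not follow the other members, with correlations from -0.16 (Cd79a) to 0.19 (Ly6d) over the 14 samples. Within groups these ran from -0.53 (Ms4a1) to -0.27 (Ly6d). Without the 2 samples farthest from the median they ran from -0.05 (Cd22) to 0.51 (Ly6d). The 3 genes closest to Blk were Tox3 at 0.857, Efl1 at 0.852 and Mfsd12 at 0.838. The signal of Blk stayed under the median of the array in every sample.

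Ly6d had the lowest adjusted p of the 7 members for late against early days. LY6D is a membrane-anchored protein that marks lymphoid progenitors committed to the B lineage, and it is also made by thymocytes and by squamous epithelium. Ly6d (chr15:74762056-74763567) read 5.15 and 5.24 on proton day 1, 4.79, 4.74 and 5.45 on proton day 3, 5.37 and 5.57 on proton day 5, 5.40 and 6.26 on proton day 12 and 6.14 and 6.38 on proton day 26, against 4.82, 5.33 and 5.04 in sham cells. All samples of days 5, 12 and 26 lay above every sham sample, as for 14.6%, 9.09% and 22.2% of all genes on these days. It was the only member whose group means lay further apart (1.26) than the widest group was broad (0.86, at day 12).

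At day 26 Ly6d stood 1.20 ± 0.26 above sham (SE; limma adjusted p = 0.133), a 2.29-fold difference. Day 12 gave 0.77 ± 0.26 (limma adjusted p = 0.745) and day 5 gave 0.41 ± 0.26 (limma adjusted p = 0.822). The day 12 value was 0.34 without its replicate 2 and 1.20 without its replicate 1. Days 12 and 26 averaged 0.95 ± 0.20 above days 1 and 3 (limma adjusted p = 0.175). Sham cells take no part in that difference itself, but they enter its error and p through the spread shared by all groups. None of these differences passed after adjustment over all genes. The adjusted p at day 26 ranged from 0.0192 to 0.576 over the alternative settings, and it passed with array weights.

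**Figure D3:**
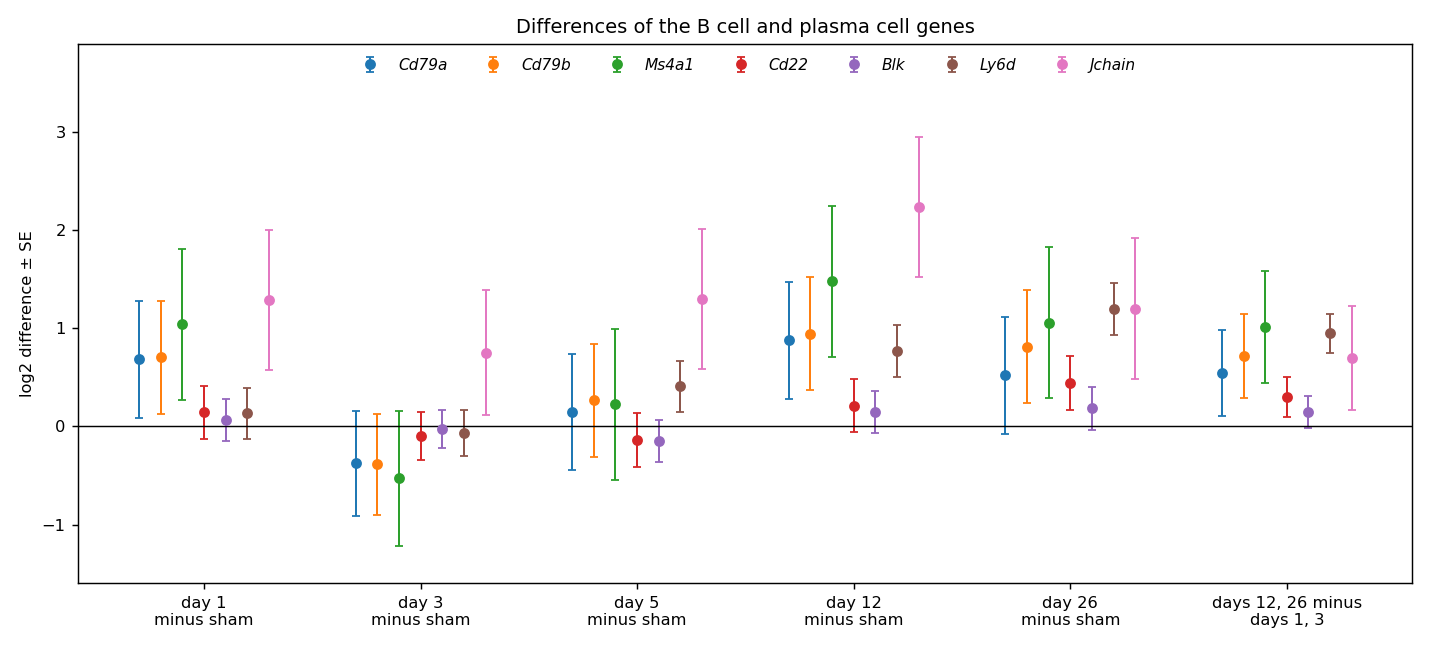
Log2 difference from sham (vertical axis) with its standard error for the 7 genes on each proton day, and, at the right, days 12 and 26 minus days 1 and 3. Jchain is highest at day 12 at 2.24, Ly6d reaches 1.20 at day 26 with a short error bar, and Blk stays near 0.

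Ly6d was followed by genes of several kinds. Pdia4, a disulfide isomerase of the secretory pathway, had the closest pattern at 0.929, then Sipa1 at 0.912 and Twf1 at 0.906. It correlated at 0.894 with the mean of 8 MHC class II genes (Spearman 0.846) and at 0.746 with Cd79b (0.732). The class II mean was 0.59 and 0.63 at day 26 and 0.01 and 0.63 at day 12, against -0.42 to -0.10 in sham cells. In that list 0 of 8 genes passed limma's adjusted p at day 26, and 5 had an unadjusted p under 0.05, all higher, where 0.0602% and 10.9% of all genes did. Cd74, the class II invariant chain, stood at 1.37 ± 0.44 (SE; limma adjusted p = 0.303) and H2-Eb1 at 1.30 ± 0.35 (limma adjusted p = 0.220). Of 6 squamous epithelial markers 0 passed at day 26 and 1 had an unadjusted p under 0.05, and their mean lay between -0.02 and 0.11, above the -0.14 to -0.05 of sham cells. The part of these genes' source cells in the Ly6d values was not tested.

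Among genes of early lymphocytes, Rag1 and Dntt were higher at the same late day and passed. Rag1, a subunit of the recombinase that cuts antigen receptor genes in B and T cell precursors, read 4.37 and 2.78 on proton day 1, 2.44, 2.63 and 2.83 on proton day 3, 5.22 and 5.10 on proton day 5, 3.11 and 4.53 on proton day 12 and 5.97 and 5.24 on proton day 26, against 2.78, 2.71 and 2.74 in sham cells. Dntt, the polymerase that adds bases at the junctions, read 3.82 and 3.03 on proton day 1, 2.58, 3.24 and 2.50 on proton day 3, 4.80 and 5.20 on proton day 5, 3.55 and 3.74 on proton day 12 and 5.65 and 5.39 on proton day 26, against 2.70, 2.84 and 3.61 in sham cells. Days 5 and 26 were above the sham range for both genes, as for 14.6% and 22.2% of all genes, and day 3 was not. At day 26 Rag1 rose by 2.86 ± 0.44 (SE; limma adjusted p = 0.0397) and Dntt by 2.47 ± 0.33 (SE; limma adjusted p = 0.0175), and Dntt also passed the F-test over all days (F = 21.8, limma adjusted p = 0.0274). These were 2 of 10 genes of the pre-B list at that day, where 0.0602% of all genes passed. This list, like the others here, was chosen with earlier results of these data known, so its share is a description only. The call of Rag1 was lost when either day 26 sample was left out, with limma adjusted p values of 0.469 without replicate 1 and 0.149 without replicate 2, and so was that of Dntt, with 0.257 and 0.149. Leaving out sham day 1 replicate 1 lost both too, with 0.138 for Rag1 and 0.0936 for Dntt. The F-test of Dntt was lost without either day 26 sample (0.285 and 0.152), either day 5 sample (0.185 and 0.131), day 3 replicate 1 (0.0924) or sham day 1 replicate 1 (0.103) or 2 (0.0663), all limma adjusted p. The Rag1 call was also lost without sham day 1 replicate 2 (0.0848), the sham day 3 sample (0.111), either day 5 sample (0.0970 and 0.0969) or day 3 replicate 1 (0.0624) or 2 (0.0654).

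These 2 genes are shared by the B and T lineages, and which cells gave their values was not tested. The B cell precursor genes named next were singled out after their values were seen. The surrogate light chain genes Vpreb1, Vpreb2 and Igll1, which are made by B cell precursors, did not pass in any comparison: Vpreb1 spanned 4.16 to 4.94 at day 26, against 4.28 to 5.04 in sham cells, and Vpreb2 6.30 to 6.82, against 6.38 to 6.51. Among 11 T cell markers 0 passed limma's adjusted p at day 26 and 7 had an unadjusted p under 0.05, all higher, where 0.0602% and 10.9% of all genes did. Their mean deviation lay between 0.71 and 0.80 at day 26 and between 0.49 and 0.61 at day 5, against -0.41 to -0.21 in sham cells. Cd8b1, a CD8 coreceptor chain, stood 3.10 ± 0.53 above sham at day 26 (SE; limma adjusted p = 0.0550), and Ccr9, a homing receptor of thymocytes, gut lymphocytes and plasmacytoid dendritic cells, rose by 3.62 ± 0.53 (SE; limma adjusted p = 0.0304), the only 1 of 6 genes in the plasmacytoid list to pass. Leaving out day 26 replicate 1 or 2 lost the Ccr9 call, with limma adjusted p = 0.293 and 0.195, and so did leaving out sham day 1 replicate 1 (0.138), the sham day 3 sample (0.0797), either day 5 sample (0.0710 and 0.0708) or day 3 replicate 1 (0.0592) or 2 (0.0583). Ly6d correlated at 0.748 with Rag1, 0.676 with Dntt, 0.773 with Ccr9 and 0.714 with Cd8b1 over 14 samples, and within groups at 0.36, -0.13, 0.36 and 0.36. Cd79b correlated at 0.436 with Rag1.

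**Figure D4:**
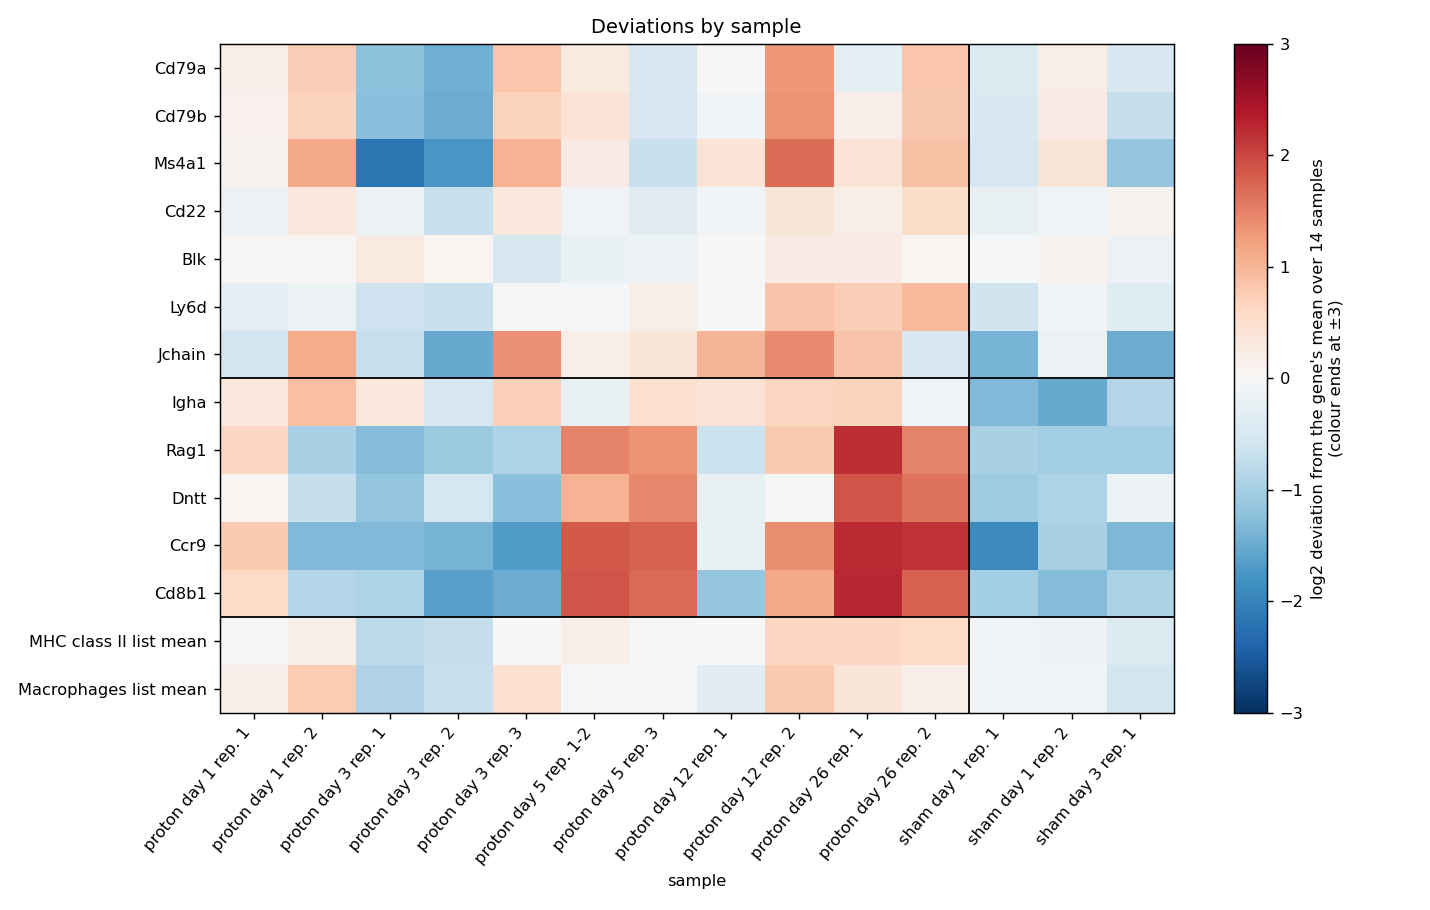
Deviation of each gene from its mean over the 14 samples (colour, log2 units, red higher) for the 7 genes, then 5 further lymphocyte genes, then the means of the MHC class II and macrophage lists; proton samples are left of the vertical line and sham samples right of it. Rag1, Dntt, Ccr9 and Cd8b1 are red in the day 5 and day 26 columns. Single samples of other days were also high. Cd8b1 and Ccr9 read 6.52 and 5.32 in day 12 replicate 2, and 5.99 and 4.71 in day 1 replicate 1, above the other sample of the same day. Cd79a, Cd79b and Ms4a1 are blue in day 3 replicates 1 and 2.

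Jchain, the antibody joining chain, had a higher mean on every proton day than in sham cells, but not one that passed. Jchain (chr5:88519809-88527897) read 4.57 and 6.24 on proton day 1, 4.45, 3.62 and 6.52 on proton day 3, 5.34 and 5.50 on proton day 5, 6.15 and 6.55 on proton day 12 and 5.98 and 4.65 on proton day 26, against 3.75, 4.95 and 3.64 in sham cells. Days 5 and 12 lay above every sham sample, as for 14.6% and 9.09% of all genes. Days 1, 3 and 26 each held a sample inside the sham range or below it. The day 12 difference was 2.24 ± 0.71 (SE; limma adjusted p = 0.745), a 4.71-fold difference. Those of days 1 and 5 were 1.29 ± 0.71 and 1.30 ± 0.71, that of day 26 was 1.20 ± 0.71 and that of day 3 was 0.75 ± 0.64. Single samples decided these sizes: day 1 gave 2.12 without replicate 1 and 0.45 without replicate 2, day 26 gave 0.53 and 1.87, and day 3 gave -0.07 without replicate 3, 1.37 without replicate 2 and 1.17 without sham day 1 replicate 2. Jchain correlated at 0.833 with the endothelial mean, 0.828 with the fibroblast mean, 0.806 with the mesothelial mean and 0.725 with the macrophage mean. Its 3 closest genes were Cog3, Sfxn3 and Xpnpep2, at 0.905, 0.901 and 0.894.

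Igha, the constant region of the IgA heavy chain that JCHAIN pairs, was also higher in proton samples. Igha read 5.36 and 5.92 on proton day 1, 5.35, 4.53 and 5.75 on proton day 3, 4.81 and 5.50 on proton day 5, 5.47 and 5.67 on proton day 12 and 5.70 and 4.95 on proton day 26, against 3.71, 3.50 and 4.14 in sham cells. Every proton sample lay above every sham sample, which held for 1 of 11 immunoglobulin genes with a single symbol, for none of the 7 members and for 0.567% of all genes. Its differences were 1.86 ± 0.35 on proton day 1, 1.43 ± 0.31 on proton day 3, 1.37 ± 0.35 on proton day 5, 1.79 ± 0.35 on proton day 12 and 1.54 ± 0.35 on proton day 26 (SE), with limma adjusted p values of 0.518, 0.305, 0.478, 0.341 and 0.144. A second probe set of the same gene lay above the sham range of 3.69 to 4.67 at day 1 (5.70 to 5.81) and day 12 (5.08 to 5.89), and overlapped it at day 3 (4.41 to 6.83), day 5 (4.36 to 4.71) and day 26 (4.21 to 4.83). Jchain and Igha had a correlation of 0.729 (Spearman 0.789), and Cd79b and Igha one of 0.353 (Spearman 0.424). Jchain was about as close to the B cell receptor genes and CD20 as to Igha. Its correlations were 0.756 with Ms4a1 (Spearman 0.842), 0.710 with Cd79b (0.723) and 0.667 with Cd79a (0.675). Among the other immunoglobulin genes the largest difference was that of the kappa variable segment Igkv4-55 at day 12, 2.73 ± 0.87 (SE; limma adjusted p = 0.745), and near-identical segments may share probes.

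Over the 7 members, 0 passed at day 1, where 0% of all genes passed limma's adjusted p and 5.37% had an unadjusted p under 0.05; no member had such an unadjusted p. At day 3 no member passed either measure (background 0.00502% and 7.27%), nor at day 5 (0.0301% and 6.89%). At day 12, 0 passed and 2 (Ly6d and Jchain, both higher) had an unadjusted p under 0.05 (0% and 6.62%). At day 26, 0 passed and 1 (Ly6d) did (0.0602% and 10.9%). The comparison of days 12 and 26 with days 1 and 3 gave 0 and 1 (Ly6d; 0.00502% and 10.2%). The F-test over all days gave 0 and 1 (0.0201% and 7.53%), and that among the proton days 0 and 1 (0% and 6.71%), Ly6d in both.

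The differences from sham were above 0 for 7, 1, 5, 7 and 7 of the 7 members at days 1, 3, 5, 12 and 26, with medians of 0.68, -0.09, 0.23, 0.88 and 0.81, against medians of -0.04, -0.02, 0.01, -0.01 and 0.06 over all genes, of which 43.6%, 47.0%, 51.4%, 48.9% and 60.1% were above 0. Lists of some other cell types had like counts, with 12, 3, 11, 12 and 12 of 12 macrophage genes and 10, 4, 7, 10 and 10 of 10 endothelial genes above 0 on these days. Others did not, with 5, 5, 5, 4 and 3 of 12 heart muscle genes and 8, 7, 2, 6 and 3 of 9 neutrophil genes. The erythroid list had 4, 1, 0, 2 and 0 of 4. Members whose every sample exceeded every sham sample numbered 0 at days 1 and 3, 2 at day 5 (Ly6d and Jchain), 3 at day 12 (Ms4a1, Ly6d and Jchain) and 3 at day 26 (Ms4a1, Cd22 and Ly6d), against 11.2%, 6.08%, 14.6%, 9.09% and 22.2% of all genes. The members are not independent of each other, since several vary together across samples.

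Apart from the pre-B list, genes of the other B lineage lists passed in no comparison. Of 22 surface and identity genes, 0 passed at day 12 and 1 had an unadjusted p under 0.05, with 16 above 0 and a median of 0.23, where 6.62% of all genes had such a p and 48.9% were above 0. Cd37 stood at 0.92 ± 0.49 (SE; limma adjusted p = 0.752) and Cd52, a small surface glycoprotein of lymphocytes, at 0.54 ± 0.39 (limma adjusted p = 0.775). Without day 12 replicate 2 these were 0.32 and 0.0096. At day 3 only 9 of the 22 were above 0, with a median of -0.07, where 47.0% of all genes were above 0. At day 26, 16 were above 0, and the 1 with an unadjusted p under 0.05, Ralgps2, was lower. At day 5 the low-affinity IgE receptor Fcer2a stood at 0.64 ± 0.19 (SE; limma adjusted p = 0.576) and Cd72, an inhibitory coreceptor, at -0.70 ± 0.37 (limma adjusted p = 0.764), which was -0.27 without day 5 replicate 3 and -1.13 without the averaged day 5 sample. Of 16 receptor signalling genes, 0 passed at day 26 and 3 had an unadjusted p under 0.05, all higher, with 14 above 0, where 10.9% of all genes had such a p and 60.1% were above 0. Ptprc, the CD45 phosphatase of all leukocytes, stood there at 0.93 ± 0.50 (SE; limma adjusted p = 0.516) and Vav1, an exchange factor downstream of the receptor, at 0.68 ± 0.26 (limma adjusted p = 0.376).

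Of 15 plasma cell and secretion genes, 0 passed at day 26 and 6 had an unadjusted p under 0.05, of which 5 were higher and 1 lower, where 0.0602% and 10.9% of all genes did. Creld2, a chaperone of the endoplasmic reticulum, stood at 0.84 ± 0.20 (SE; limma adjusted p = 0.148; 0.56 without day 26 replicate 1) and Pou2af1, a B cell transcriptional coactivator, at 0.64 ± 0.16 (limma adjusted p = 0.178). Xbp1, a factor that plasma cells need for secretion and that many other cells use under stress, had the lowest adjusted p of that list (limma adjusted p = 0.0858). At day 3 Mzb1, a chaperone of antibody-secreting cells, stood at 0.51 ± 0.16 (SE; limma adjusted p = 0.471), and at day 1 Sdc1, the plasma cell surface marker CD138, at -0.39 ± 0.17 (SE; limma adjusted p = 0.815). The mean deviation of the 7 members was most like Dock2 at 0.967, Capg at 0.956, Apobec1 at 0.954, Endod1 and Fndc1 at 0.952, Cd209f at 0.948, Ceacam1 at 0.947 and Sp100 at 0.946.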

How the data were processed

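RNA of 15 arrays was given as log2 signals for 34760 probe sets, as deposited by the authors. Per the submitters' processing notes MAS5 was used; normalization and background steps are not given in the sources used here. Values were used as deposited. Of the probe sets, 21640 had 1 gene symbol in the platform annotation, 1321 several and 11799 no entry; for each of 19937 genes the single-symbol probe set with the highest mean over the 15 arrays was taken. Arrays 1 and 2 of proton day 5 were averaged, which left 14 samples in 6 groups, and the sham samples of days 1 and 3 were pooled. One limma model (version 3.58.1, R 4.3.3; lmFit and eBayes with a variance trend) held all groups; Benjamini-Hochberg adjustment ran over all 19937 genes, with a threshold of 0.05, and errors of differences are standard errors of that fit. The fitting step was tested on simulated data. Correlations are over the 14 samples and carry no p. List means are mean deviations from each gene's mean. Gene positions and promoters come from RefSeq tables of GRCm38.p6, and figures and summaries were made in Python 3.11.15.

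The 7 members, the gene lists and the tests were chosen with earlier results of these data known. Genes named beside the members are those of each list that passed, otherwise the 2 with the largest absolute difference in a comparison, and the 3 genes most like each member (8 for their mean). Igha's second probe set, Xbp1, Vpreb1, Vpreb2, Igll1 and Cd79b's relation to Rag1 and Igha were singled out after their values were seen. The replicate numbers do not pair the samples: of 21 same-number pairs in different groups the correlations of deviations had a median of -0.043, and 7 were above 0.1. The alternatives were quantile normalization, equal array medians, only genes above the overall median, array weights, averaging of each gene's probe sets, leaving out the variance trend, 15 separate arrays, sham of day 1 only, a replicate block, a covariate of macrophage, endothelial and fibroblast markers, and each sample left out.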

Additional observations from a re-analysis of the deposited data

How the results depend on the processing

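Of the 7 members, 0 passed in all 8 comparisons under most settings. The exceptions were all Ly6d. With array weights 1 passed at day 26 (limma adjusted p = 0.0192) and 1 in the test of any day (limma adjusted p = 0.0458). There 132 and 63 of 19937 genes passed. A covariate of other cell types was the mean of macrophage, endothelial and fibroblast markers. With it 1 passed for days 12 and 26 against days 1 and 3 (limma adjusted p = 0.0175), where 255 genes passed. Leaving out each sample gave 0 to 1 in that comparison. The 1 came without day 3 replicate 3 (limma adjusted p = 0.0474), where 14 genes passed. With the replicate block 0 members passed and Ly6d at day 26 had an adjusted p of 0.202, but the numbers do not pair the samples. Under the block Cd74 at day 5 was -0.022. With that covariate, day 1 differences turned to -0.13 (Cd79a), -0.15 (Cd79b), -0.11 (Ms4a1), -0.17 (H2-Aa) and -0.035 (Prkcb), and day 26 ones to -0.033 (Ms4a1) and -0.10 (Cd37). Leaving out 1 sample moved Jchain at day 3 between -0.074 and 1.37, Dntt at day 1 between -0.013 and 0.77 and Cd8b1 at day 12 between -0.072 and 2.22. The day 26 calls of Rag1, Dntt and Ccr9 were lost without a variance trend (limma adjusted p = 0.139, 0.0877 and 0.139) and with the replicate block (0.139, 0.0552 and 0.126); with sham of day 1 only those of Rag1 and Ccr9 were lost (0.109 and 0.0798), and with equal array medians that of Rag1 (0.0518). The F-test of Dntt over all days was lost without a variance trend (0.119), with equal array medians (0.0658) and with the replicate block (0.0773). Some differences of genes outside the members passed under at least 1 alternative, though not as reported. Among them were Igha at days 3 and 26, Cd8b1 at days 5 and 26 and H2-Eb1 at day 26. H2-Ab1 did so for days 12 and 26 against days 1 and 3. Over the alternatives the number of genes passing was 0 to 126 for any day, against 4 as reported, 0 to 91 among days (0), 0 to 255 for late against early (1), 0 to 3 at day 1 (0), 1 to 65 at day 3 (1), 0 to 35 at day 5 (6), 0 to 1 at day 12 (0) and 0 to 132 at day 26 (12). The causes were not tested. Restricting to genes above the overall median tested only Cd79a, Cd79b, Ly6d and Jchain of the members. Signals at or under the array medians limit Blk on all 15 arrays and, on some arrays, Cd22, Ms4a1, Jchain, Cd79a and Ly6d. The sham values of Rag1, Dntt, Ccr9 and Igha (3.50 to 4.14 for Igha) lay well under the medians. So did those of Jchain in sham day 1 replicate 1 (3.75) and the sham day 3 sample (3.64). These low values limit the sizes of the differences from sham.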

Other observations

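A further 16 immunoglobulin probe sets carry several gene symbols and stood outside the comparisons. In 0 of them did every proton sample exceed every sham sample, against 193 of 34760 probe sets in all (0.555%), a share at which 0 of 16 says nothing about Igha.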
